A study of Brassica napus with 6 samples.

Results

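Among the seed transcripts of oilseed rape (Brassica napus) whose level stayed nearly flat in control plants, 150 genes stood far lower in drought seeds at day 50 after flowering than in control seeds of that day. They were taken from the 72611 genes in the deposited count table by their measured values, and all 6 libraries entered the choice. A gene qualified if its ID began with Bna and its mean over the libraries lay between 5 and 500 CPM (reads scaled to the library total), which 26782 genes met. Its 3 control libraries had to lie within 1 unit of each other in log2(normalised reads + 10), which left 20000 genes. Normalised reads are counts divided by a size factor that brings the typical gene to the same level in every library. The drought minus control difference on this log2 scale also had to be under 0.5 in size at days 30 and 40, which left 13397 genes. The 150 with the lowest day 50 difference are called the members, and the 13397 genes are called the pool. The differences of days 30, 40 and 50, the flat control course and all counts made from them were therefore used in the choice and are given as a description, with no test.

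Seeds of this crop pass from embryo growth through a filling phase, in which oil and storage proteins accumulate, to maturation and drying. Over that passage many transcripts change severalfold, while others that serve basic cell functions keep a steady share of the RNA. Drought during flowering and filling is known to shorten seed filling in many crops.

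The drought libraries came from seeds at 30, 40 and 50 days after flowering on plants kept under drought from the start of flowering, and the control libraries from seeds of the same ages on control plants. Both treatments were grown under a rain shelter. There was 1 library per treatment and day, so no value has a replicate check, and nothing in the labels says whether seeds of several plants were pooled. The labels speak of 6 lines and do not tie a library to a line, so a difference between lines cannot be told apart from drought. Counted reads came to 16177156, 10314859 and 15024986 for drought seeds of days 30, 40 and 50, and to 12209126, 13893472 and 14918127 for control seeds. In bulk seeds, fewer cells of a type and less RNA per cell cannot be told apart.

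The IDs carry no gene names, and 0 of them were found in RefSeq's gene table (assembly Da-Ae). No other annotation of these IDs was used here, so no function is given for any member, and the seed tissue was not checked against its marker genes. Members are described by rank, with rank 1 for the lowest day 50 difference, and the genes of ranks 1 and 2 are named by ID. Near-identical copies on the A and C subgenomes can share reads, so the value of a single gene is uncertain to that extent.

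At the median, the members differed little between drought seeds of days 30 and 40 and were low in those of day 50. The median member had 266, 258 and 63.5 normalised reads in drought seeds of days 30, 40 and 50, against 267, 285 and 287 in control seeds. The drought library of day 50 is the one library that stands apart, while the medians of the other 5 lie close together. Single members varied more, since drought day 40 minus drought day 30 ran from -1.41 to 1.57 in log2(normalised reads + 10), with a median of -0.05. Over the members, normalised reads at day 50 ran from 3.15 to 989 in drought seeds and from 48.3 to 4010 in control seeds. The lowest value in drought seeds and that in control seeds belong to different members. As a share of all counted reads, the members took up 0.724%, 0.443% and 0.107% in drought seeds at days 30, 40 and 50, against 0.703%, 0.663% and 0.506% in control seeds. Exact binomial 95% intervals of these shares reached at most 0.0047 percentage points to either side and cover counting error only. These shares are of the library total and are not divided by size factors, and at day 40 they differ more between drought and control than the normalised medians do.

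**Figure D1:**
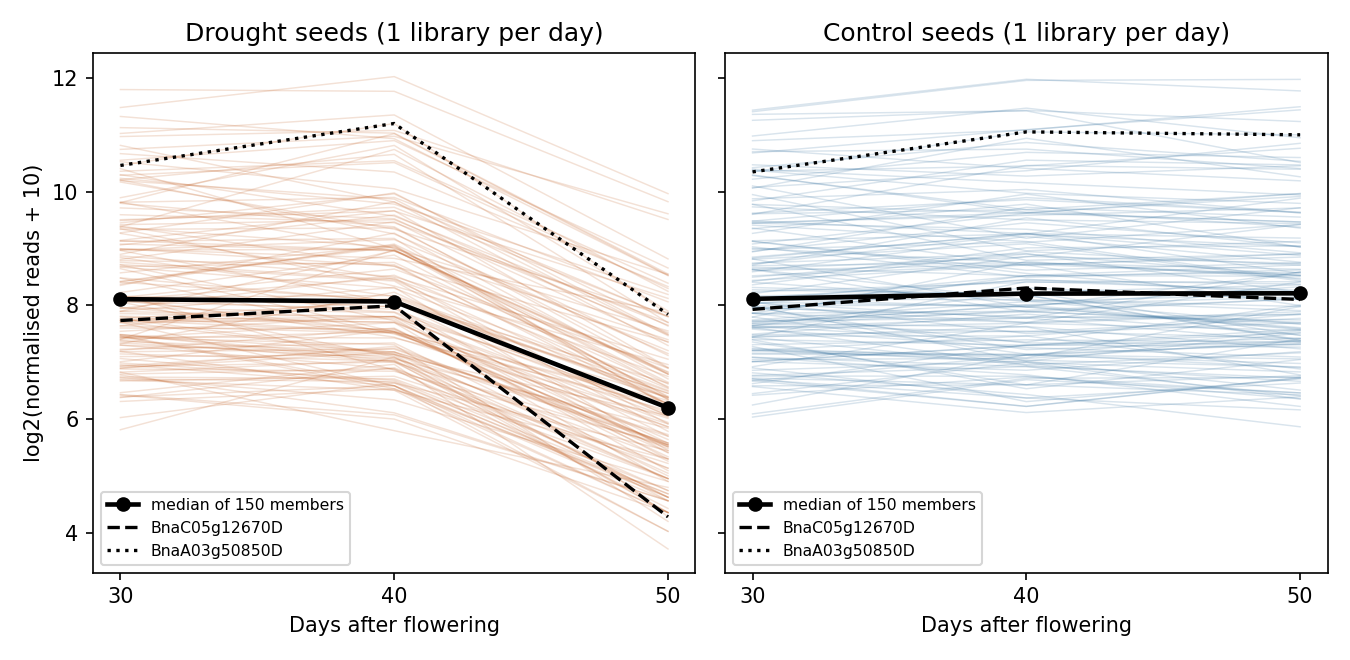
Level of each of the 150 members, as log2(normalised reads + 10), by days after flowering in drought seeds (left) and control seeds (right), with 1 library per day. Thin lines are genes, the solid black line is the median member and the broken and dotted lines are BnaC05g12670D and BnaA03g50850D. The lines drop between days 40 and 50 in drought seeds, where the median member had 63.5 normalised reads at day 50 against 287 in control seeds.

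The reads of the 150 members together came to 16150 in drought seeds at day 50, against 75536 in control seeds. After scaling, the drought sum was 0.218 of the control sum, with a 95% exact interval of 0.215 to 0.222 that covers counting error only. At day 30 the same ratio was 1.01 (0.9994 to 1.02), and at day 40 it was 0.933 (0.923 to 0.943). These ratios say how far the list as chosen differed on each day. They do not say how far drought and control plants differ in general, since there was no second library of either treatment on a day.

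Taken one by one, the day 50 differences of the members ran from -3.82 to -1.73, with a median of -1.99 and the middle 50% between -2.26 and -1.83. All 150 members were at least 2-fold lower in drought seeds on the log2(normalised reads + 10) scale, 75 were at least 4-fold lower and 2 were at least 8-fold lower. In the pool as a whole, 6.43% of genes were at least 2-fold lower at day 50, 0.56% at least 4-fold lower and 0.0149% at least 8-fold lower. These members are the lower end of the pool by choice, so nothing is read from the contrast. On the reads alone, without the added 10, control seeds had 3.42 to 28.1 times the normalised reads of drought seeds, with a median of 4.7 times. The upper end of every member's 95% counting interval for the drought over control ratio was at most 0.367. The members were chosen for a low day 50 difference, so these intervals are a description and no check on it.

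The last member, rank 150, had a day 50 difference of -1.726, and the first gene left out, rank 151, one of -1.725. Rank 150 had 214, 198 and 48.3 normalised reads in drought seeds at days 30, 40 and 50, against 256, 242 and 183 in control seeds. Rank 151 had 752, 824 and 229, against 703, 780 and 779.7. The end of the list is thus a chosen number of genes and not a gap in the data, as the distribution over the pool shows. Which genes it holds also depended on the scaling, since scaling by library totals in place of size factors made the rule take 47 of the 150 again.

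**Figure D2:**
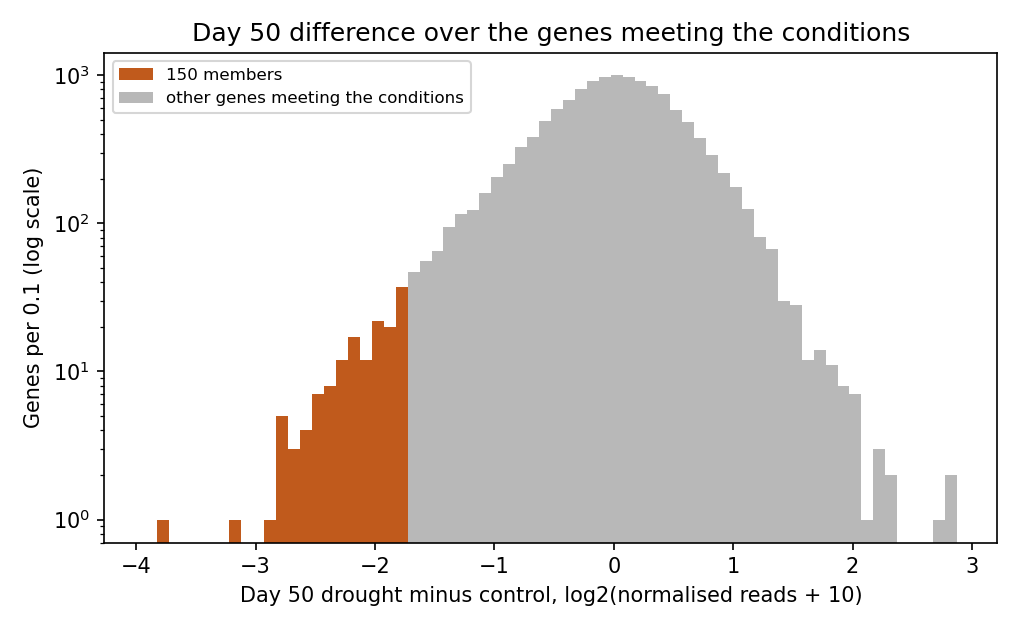
Number of genes (log scale) by day 50 drought minus control difference in log2(normalised reads + 10), over the 13397 genes of the pool. The 150 members (dark) form the lower end, from -3.82 to -1.73, and the distribution runs on into the other genes (grey) with no gap at the end of the list; its upper end reaches 2.86.

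The gene of rank 1, BnaC05g12670D, has a length of 1394 bases in the deposited table. At days 30, 40 and 50 it had 316, 145 and 9 reads in drought seeds, against 269, 341 and 258 in control seeds. Scaled for depth, these were 203, 245 and 9.45 normalised reads in drought seeds, against 234, 307 and 265 in control seeds. The drought library of day 50 is low and the other 5 overlap in level. Control seeds had 28.1 times the normalised reads of drought seeds at day 50, with a counting interval of 14.5 to 62.0.

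The authors' FPKM values (reads scaled by gene length and library) do not show that size of difference for this gene. BnaC05g12670D stood at 18.9, 22.8 and 9.17 FPKM in drought seeds at days 30, 40 and 50, against 17.7, 20.6 and 18.7 FPKM in control seeds. By FPKM the drought value of day 50 was 0.491 of the control value, while by reads it was 0.0356, a 13.8-fold gap between these measures. The gene is rank 1 by its reads alone, and the source of the gap was not tested.

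The gene of rank 2, BnaA03g50850D, has a length of 1200 bases. It had 2178, 1385 and 209 reads in drought seeds at days 30, 40 and 50, against 1487, 2348 and 1982 in control seeds. In normalised reads these were 1398, 2338 and 219 in drought seeds, against 1292, 2110 and 2036 in control seeds. In both treatments the gene was higher at day 40 than at day 30, and at day 50 the level held in control seeds alone. Control seeds had 9.28 times the normalised reads of drought seeds at day 50 (counting interval 8.04 to 10.8). The FPKM of BnaA03g50850D ran the same way, with 140, 231 and 20.6 in drought seeds and 135, 215 and 198 in control seeds. It is also the lowest in rank among the 10 members of highest mean CPM.

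The genes of ranks 3, 4 and 5 lay close together in their day 50 difference, at -2.84, -2.81 and -2.79. Rank 3 had 1174, 1602 and 197 normalised reads in drought seeds at days 30, 40 and 50, against 1361, 1853 and 1471 in control seeds. Rank 4 had 199.7, 130.0 and 13.6 in drought seeds, against 239.8, 139 and 156 in control seeds. Rank 5 had 94.4, 91.2 and 14.7 in drought seeds, against 95.6, 87.2 and 160.3 in control seeds. Rank 4 was already lower at day 40 than at day 30 in both treatments, whereas rank 5 was higher at day 50 than before in control seeds, which adds to its difference.

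Members with few reads carry wide intervals. Rank 8 had the fewest reads in drought seeds at day 50, with 122, 68 and 3 at days 30, 40 and 50 against 64, 104 and 76 in control seeds. Control seeds had 24.8 times its normalised reads at day 50, but the counting interval runs from 8.17 to 123. At the other end, rank 73 had both the highest mean CPM and the most reads in drought seeds at day 50. It had 4428, 2457 and 942 reads in drought seeds, against 3109, 4408 and 3904 in control seeds, and control seeds had 4.06 times its normalised reads at day 50 (3.78 to 4.36). In the list's middle, rank 75 had 157, 118 and 35.7 normalised reads in drought seeds against 119, 147 and 174 in control seeds. Rank 76 had 1993, 2149 and 719 normalised reads in drought seeds against 1895, 2158 and 2871 in control seeds.

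The drought library of day 50 was the lowest of the 6 libraries for 150 of 150 members. The rule's bounds together with the members' day 50 differences fix this outcome, so nothing is read from it. In the pool the drought library of day 50 was the lowest for 31.5% of genes. The next lowest library of a member stood 1.81 to 21.5 times above it, with a median of 3.74 times, and at least 2-fold above it for 148 members. In log2(normalised reads + 10), the median difference of drought day 50 was -2.12 against control day 30 and -2.15 against control day 40. Against the drought libraries of days 30 and 40 it was -2.09 and -2.03. The pool's medians for these differences were all within 0.01 of 0. The rule kept the other 5 libraries near each other and took the lowest day 50 differences. These values thus follow largely from the choice and are a description only.

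The highest library of a member varied. It was the drought library of day 30 for 27 members and that of day 40 for 23, and the control library of day 30 for 32, of day 40 for 38 and of day 50 for 30. Within the narrow control range, 28 members were higher at each later control day and 32 lower at each, while 57 were highest and 33 lowest at day 40. The median day 50 difference of these groups was -2.01, -1.86, -2.08 and -1.97. Every member's value lies at or below that of rank 150 by choice, which keeps these medians close. No like counts over the pool are given here, so these counts are not read as particular to the members. The control range itself had a median of 0.54 in the members and of 0.44 in the pool.

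At days 30 and 40 the rule bounded the difference but not its sign. At day 30, 81 members were lower and 69 higher in drought seeds, with a median difference of -0.015. At day 40, 105 members were lower and 45 higher, with a median of -0.16. In the pool, 49.2% of genes were lower at day 30 and 51.3% at day 40. The 150 pool genes with the highest day 50 difference leaned the other way at day 40, with a median of 0.17. Across the 150 members the day 40 and day 50 differences had a Spearman correlation of 0.04, and across the pool one of 0.161. The members span only the low end of the day 50 differences by choice. Both values describe genes of the same libraries.

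**Figure D3:**
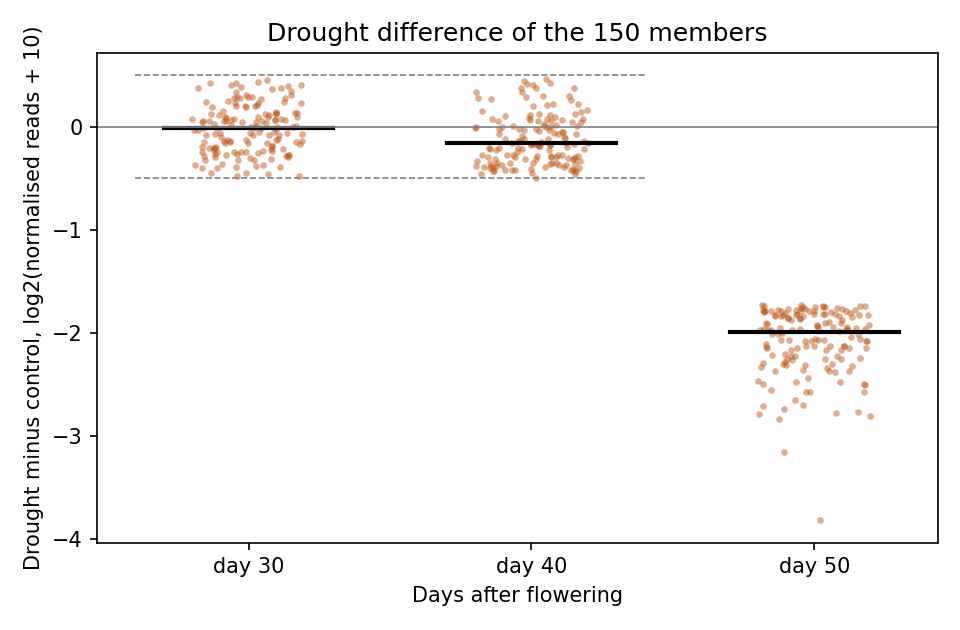
Drought minus control difference in log2(normalised reads + 10) for each of the 150 members (points, spread sideways for sight) on each day, with 1 library per treatment and day. Black bars are medians, at -0.015, -0.16 and -1.99, and broken lines mark the bounds of 0.5 that the rule set at days 30 and 40.

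Lower and higher genes were not balanced in the pool at day 50. Of its 13397 genes, 861 were at least 2-fold lower and 509 (3.8%) at least 2-fold higher in drought seeds, so that 62.8% of the differing genes were lower. Scaled by library totals in place of size factors, 409 were lower and 484 higher, or 45.8% lower, among the 8545 genes that then met the conditions. At 4-fold the counts were 75 lower and 13 (0.097%) higher, and at 8-fold 2 lower and 0 higher. The 150 highest genes of the pool had differences of 1.32 to 2.86, with a median of 1.52, nearer to 0 than the members' -1.99.

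The members are a part of the genes that were this low at day 50. In the level window of 5 to 500 CPM, 672 genes had a day 50 difference at or below that of the last member. Of these, 377 had a control range of 1 or more and so were not flat in control seeds. Of the 295 flat ones, 114 were already lower by 0.5 or more at day 40, 12 were higher by that much at day 40, and 38 differed by that much at day 30. Of these, 19 failed on both days. A further 2 new gene models met every condition but the ID prefix.

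The authors' FPKM, which come from the same libraries and are no independent measure, gave a like picture for most members. The median member stood at 24.5, 20.6 and 4.32 FPKM in drought seeds at days 30, 40 and 50, against 23.4, 25.3 and 23.5 FPKM in control seeds. By FPKM the drought over control ratio of day 50 ran from 0.0406 to 0.491 with a median of 0.213, and drought day 50 was the lowest library for all 150 members. At day 50 the ratio by FPKM and the ratio by normalised reads lay over 1.5-fold apart for 5 members, or 3.33%, and for 1.31% of the pool.

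Those 5 members were ranks 1, 14, 37, 44 and 124, and rank 1 was the only one over 2-fold apart at day 50. Ranks 14, 37 and 44 were lower by FPKM than by reads, with ratios of 0.0773 against 0.146, 0.103 against 0.157, and 0.122 against 0.195. Rank 124 was higher by FPKM, with 0.286 against 0.19. Rank 44 was not flat by FPKM, with 469, 213 and 94.0 FPKM in drought seeds at days 30, 40 and 50, against 187, 715 and 769 FPKM in control seeds. In normalised reads it had 272, 279 and 79.8 in drought seeds, against 223, 358 and 409 in control seeds. At days 30 and 40 rank 44 was the 1 member whose ratios by FPKM and by reads lay over 2-fold apart.

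Gene length, which the rule did not use, was shorter in the members than in the pool. The members had a median length of 1262 bases, with the middle 50% between 1024.5 and 1835, against a median of 1757 bases (1243 to 2466) in the pool. The 150 pool genes with the highest day 50 difference had a median of 1788 bases, close to the pool. The median was 1221 bases for the 75 lowest genes and 1316 bases for the 300 lowest. With no limit on mean CPM the list had a median of 1226 bases, near that of the members. Its pool, then of 37939 genes, had a median of 1203 bases, so the list was no longer the shorter. That change lies in the genes compared with and not in the list.

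By class, members made up 1.05% of the pool genes of up to 500 bases (2 of 190), 1.91% of those over 500 and up to 1000 bases and 1.80% of those over 1000 and up to 1500. They made up 1.02% of the next class, up to 2000 bases, 0.732% of that up to 3000, and 0.154% of the genes over 3000 bases, which held 3 members among 1949 genes. The share of pool genes at least 2-fold lower at day 50 had the same order at the long end, at 9.70% from 1000 to 1500 bases and 2.62% above 3000. The share at least 2-fold higher was 2.96% and 4.0% in these classes. Over all pool genes the day 50 difference had a Spearman correlation of 0.098 with length, and over the 150 members 0.122. Both are weak and describe genes measured in the same libraries.

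**Figure D4:**
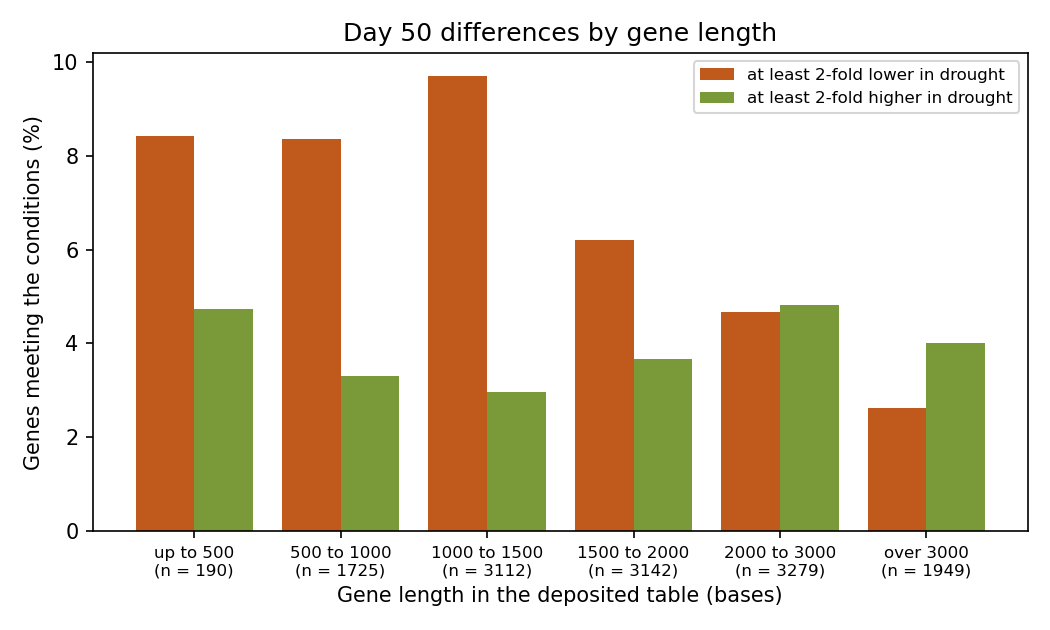
Share of pool genes (%) at least 2-fold lower (left bar of each pair) and at least 2-fold higher (right bar) in drought seeds than in control seeds at day 50, by gene length in bases, with the number of pool genes per class. The lower share is 9.70% at 1000 to 1500 bases and 2.62% over 3000 bases, while the higher share is 2.96% and 4.0%.

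The gap in length differed with the read level. Among genes of 5 to 10 mean CPM, the 36 members had a median length of 1581 bases and the pool one of 1586. Among those of 10 to 20 CPM, 42 members had a median of 1160 bases and the pool 1755. At 20 to 50, 50 to 100 and 100 to 500 CPM the members' medians were 1297, 1208 and 1200 bases, against 1929, 2002 and 1834 in the pool. With the trend of the differences with gene length removed first, the rule took 119 of the 150 members again, and its list had a median length of 1502 bases against 1767 in its pool.

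Genes with more reads held more members for their number. Members made up 0.882% of pool genes of 5 to 10 CPM, 0.95% at 10 to 20, 1.12% at 20 to 50, 2.39% at 50 to 100 and 2.80% at 100 to 500 CPM, the last being 9 of 322 genes. Levels here are not scaled by length, and the added 10 reads shrink the differences of genes with few reads. The pool genes of 100 to 500 CPM were also the least balanced, with 18.6% at least 2-fold lower and 4.04% at least 2-fold higher in drought seeds at day 50.

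Both subgenomes held members. By their IDs, 66 members (44.0%) were A genes and 84 (56.0%) C genes, against 47.8% and 52.1% of the pool. The A share was 38.7% in the 75 lowest genes and 48% in the 300 lowest, so it changed with the length of the list. Of the members, 12 (8.0%) were not placed on a numbered chromosome, against 9.12% of the pool. Chromosome C03 held the most members, 15 of its 1105 pool genes (1.36%), followed by A03 with 14 of 909 (1.54%) and C05 with 12 of 821 (1.46%). Chromosome C06 had the highest share among the numbered chromosomes, 10 of 548 (1.82%), and A07 the lowest, 2 of 585 (0.342%). Over the whole pool the members were 150 of 13397 genes. The extremes among chromosomes rest on few members, so nothing is read from them. In the 300 lowest genes the highest share was on A03, at 3.52%, and the lowest on A07, at 0.684%.

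Genes next to a member were low about as often as other genes. In the order of the ID numbers, with genes of the level window only, the neighbours on either side of the 138 members on numbered chromosomes were at least 2-fold lower at day 50 in 25 of 276 cases, or 9.06%. For all genes of the window that share was 10.1%, as it was for the window as a whole, with 2698 of 26782 genes. The neighbours' median day 50 difference was -0.012. In 4 cases 2 members lay within 10 such genes of each other, namely ranks 24 and 66 on A05, 23 and 83 on C04, 36 and 88 on C06, and 35 and 134 on C07. No like count for other genes is given here, so nothing is read from these pairs.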

How the data were processed

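RNA from seeds of 6 libraries, 1 per treatment and day, was sequenced as paired reads on an Illumina HiSeq instrument, per the labels' protocols. Raw counts for each gene were deposited by the authors with a gene length, and a file of values per library with no unit in its header. The latter were read as FPKM deposited by the authors, because the submitters' processing notes name Cufflinks (no version, no role) and the values run in rough proportion to count over length. The aligner, counting tool, genome build, use of strand and treatment of multiply matching reads were not given in the sources used here.

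Counts were divided by median-of-ratios size factors over all genes with a read in every library, and the rule was applied as stated in the results, with Python 3.11.15, pandas 2.3.3 and scipy 1.17.1. TMM factors for an alternative came from edgeR 4.0.16 in R 4.3.3. With 1 library per group and members chosen by the values described, no test was run. Intervals are exact binomial at 95%, conditional on the reads of both libraries, and since reads carry no molecular identifiers they cover counting error only. The rule's script was run on simulated counts with planted falls and no variation beyond counting error. That run checks the code and says nothing about the members. The members, and the choice of what to describe, were made with earlier results of these data known. By the naming rule for IDs without gene names, the 2 members with the lowest day 50 difference are named. Other members go by rank: those with the most or fewest reads or the highest mean CPM, ranks 3 to 5, the middle 2 and the last. The members whose FPKM and read ratios differ, and the neighbouring members, were picked out after their values were seen. No sequences are shown, since the IDs match no sequence used here.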

Additional observations from a re-analysis of the deposited data

How the results depend on the processing

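The 150 members stayed at least 2-fold lower at day 50 with an added 1 or 30 reads in place of 10, with TMM factors and with library totals alone, and 149 did so by log2(FPKM + 0.5). The exception was BnaC05g12670D, at -0.99 by FPKM against -3.82 by reads. These settings reuse the libraries whose values chose the members, so the outcome is no separate support for the fall. The ratio of sums, 0.218 in the results, was 0.214 with TMM factors, 0.212 with library totals and 0.207 with FPKM. Each of these lies below the counting interval of 0.215 to 0.222, which does not cover the choice of scaling. Which genes make up the list depended more on the settings. Of the 150, the rule took 47 again with library totals alone, where 93 failed the bound at day 40, as the median of all genes in the window moved there to -0.46 in log2. It took 64 with a control range under 0.5, 57 with bounds of 0.25 at days 30 and 40, 84 with bounds of 1, 77 with day 30 left out of the rule and 73 with day 40 left out. In the other 9 settings it took 106 (FPKM) to 149 (no upper limit on CPM).

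The pool numbered 8545 genes with library totals, 37939 with no limit on CPM, 7890 with the narrower control range and 5735 with bounds of 0.25. Its genes at least 2-fold lower at day 50 numbered 409 with library totals, 379 with the narrower range, 342 with bounds of 0.25, 1360 with bounds of 1 and 1438 without day 40. Those at least 2-fold higher numbered 243, 173, 910 and 1035 in the last 4 of these settings, and 1373 with no limit on CPM, where 47.8% of the differing genes were lower against 62.8% in the results. No paired analysis was possible because the day 50 difference rests on 1 library of each treatment. Drought and control libraries do pair by day, but a fit over all 3 days was not run, since the rule chose the members by the differences of those days. Depth limits most the members with few reads in drought seeds at day 50, down to 3.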
